A study of Homo sapiens and Mus musculus with 12 samples.

Results

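The HOX genes, homeobox transcription factor genes that lie in 4 clusters, were followed through 6 libraries of mouse colon and 6 libraries of RKO cells. Members were taken by symbol: the letters Hox or HOX, a cluster letter from A to D and a paralogue number. This gave 35 of the 17383 genes listed for mouse colon (11 in cluster a, 9 in b, 7 in c and 8 in d) and 30 of the 15590 genes listed for RKO (11 in A, 9 in B, 6 in C and 4 in D). Mouse Hoxb1, Hoxc12, Hoxc13 and Hoxd1 and human HOXB1, HOXC4, HOXC12, HOXC13, HOXD4 and HOXD10 to HOXD13 were not analysed here. The mouse libraries were polyadenylated RNA from the colon of C57BL/6J animals aged 12 weeks, 3 Zfp280c knock-out and 3 wild-type. The labels name neither the segment of colon taken nor the design of the deleted allele. RKO is an established human colon cancer line, and all 6 of its libraries came from cells with a stable ZNF280C shRNA under tetracycline control, 3 after 72 h with doxycycline at 1 ug/ml and 3 without it. No library of RKO cells without the shRNA, or of such cells given doxycycline, was part of the comparison.

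In vertebrates the order of HOX genes along a chromosome follows the order in which they are used along the body. Genes with low paralogue numbers, at one end of a cluster, are active towards the head, and genes with high numbers, at the other end, towards the tail. In the gut this order persists in the adult, so that the mix of HOX transcripts in a piece of intestine carries a record of where it came from: paralogues 4 to 8 are typical of midgut and proximal colon and paralogue 13 of the hindgut, where Hoxa13 and Hoxd13 are needed to form the distal colon and anorectum. HOX proteins bind DNA with partners of the PBX, MEIS and PKNOX families, and CDX factors and retinoic acid act on the clusters from upstream.

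The targeted gene followed the labels in both systems. Zfp280c stood at 0.09, 0.09 and 0.22 FPKM (fragments scaled to transcript length and library size, a level per length) across the knock-out and at 2.48, 2.25 and 3.17 FPKM across the wild-type libraries, so that the knock-out mean was 5.06% of the wild-type mean. ZNF280C signal in RKO was 123, 99.7 and 79.1 with doxycycline and 193, 172 and 227 without it, so that the mean with doxycycline was 51.0% of that without (exact permutation p = 0.1 in each system, the smallest that 3 against 3 can give). Of the colon epithelium markers, 13 of 14 were listed for mouse colon, with a summed level of 15450 to 23120 FPKM per library. Of these, 5 were listed for RKO, among them KRT8, KRT18, VIL1 and CDX2. Of 9 marker lists for other cell types, the RKO table held 1 to 4 genes each, and 1 of these genes was called, beside 1.14% of all genes. It was ITGAX, an integrin of immune cells, which was higher with doxycycline. CD68, the other immune marker listed, was not called (log2 fold change 0.12 ± 0.12, SE). 1 wild-type library, replicate 2, stood apart from the other two in its Hox RNA and lay near the knock-out libraries, so colon results are given with and without it. Because it was singled out by its Hox values, the values without it are a description. They are no test of the Hox genes or of other genes that vary with them, and no p is given for them. Nothing in the labels says whether libraries of a group came from separate animals or cultures, so the p-values measure the spread between these libraries, which may be technical.

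With all 6 colon libraries, no Hox gene passed the test between genotypes, and the wild-type libraries differed widely among themselves. In wild-type replicates 1 and 3, Hoxb13, the most distal gene of cluster b, was the most abundant Hox transcript, and Hoxb3 to Hoxb8 lay between 0.06 and 0.65 FPKM. In the 3 knock-out libraries and in wild-type replicate 2, Hoxb3 to Hoxb8 lay between 2.80 and 18.2 FPKM, and Hoxb9 was the most abundant Hox transcript. The tested genes of cluster a varied 3.33-fold at most between libraries, and cluster c reached at most 0.29 FPKM. Because these are bulk samples, fewer cells of a type and less RNA per cell cannot be told apart.

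**Figure D1:**
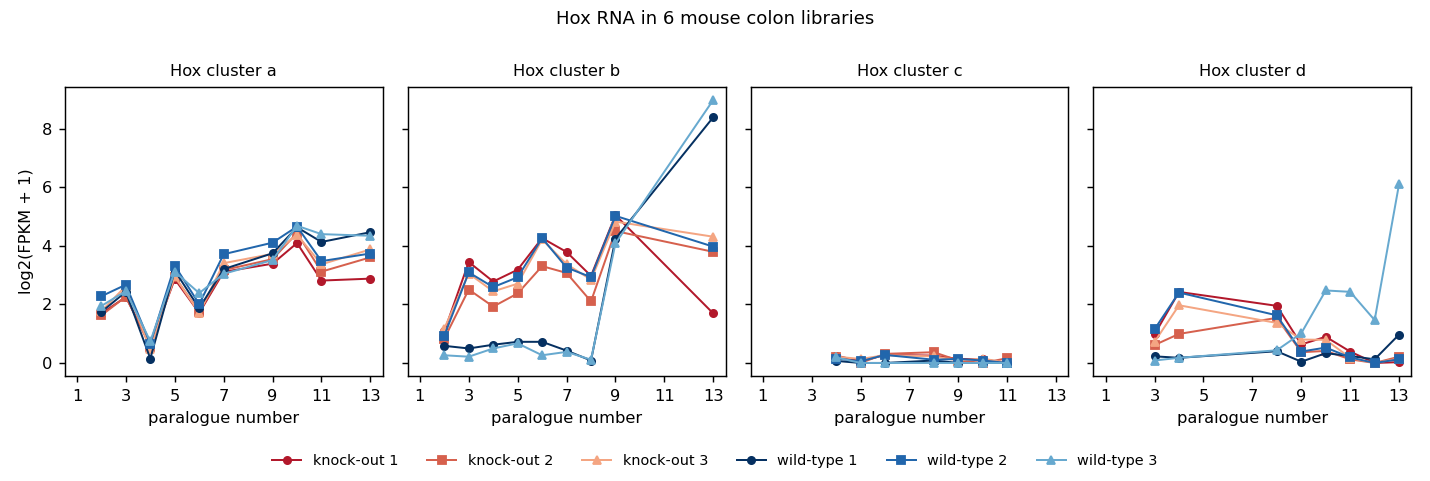
Hox RNA in mouse colon as log2(FPKM + 1) against paralogue number, with a panel for each cluster and a line for each of the 6 libraries (reds, knock-out; blues, wild-type). In cluster b, wild-type replicates 1 and 3 lie at the bottom from Hoxb3 to Hoxb8 and at the top at Hoxb13 (336 and 507 FPKM), while wild-type replicate 2 runs with the knock-out lines.

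In cluster a, Hoxa9 to Hoxa13 were all above Hoxa2 to Hoxa4 in every library. Hoxa4 (0.11 to 0.67 FPKM over the 6 libraries) was below the mean of 1 FPKM needed for testing. Hoxa2, a patterning gene of the hindbrain, stood at 2.22, 2.09 and 2.41 FPKM among knock-out and 2.35, 3.86 and 2.86 FPKM among wild-type libraries. For Hoxa3, known for its part in pharyngeal organs, the levels were 3.77, 3.81 and 5.18 FPKM against 4.39, 5.38 and 4.49 FPKM. Both genes overlapped between genotypes. Hoxa5, which in mice is needed for normal lung and gut maturation, was lower in every knock-out library (6.30, 6.68 and 6.77 FPKM) than in any wild-type library (7.91, 9.04 and 7.67 FPKM). Hoxa6 was separated in the same direction, at 2.27, 2.37 and 2.27 FPKM against 2.65, 3.03 and 4.23 FPKM. Neither passed, with log2 fold changes of -0.28 ± 0.09 and -0.36 ± 0.15 (SE, on the log2(FPKM + 1) scale, knock-out against wild-type, adjusted p = 0.396 for both, limma).

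The central and distal genes of cluster a had the highest means of that cluster over the 6 libraries. Hoxa7 stood at 7.65, 8.03 and 9.63 FPKM among knock-out and 8.24, 12.1 and 7.26 FPKM among wild-type libraries, with wild-type replicate 2 the highest. Hoxa9, known as a driver of leukaemia when overexpressed, was at 9.50, 10.7 and 12.2 FPKM against 12.4, 16.3 and 10.4 FPKM. These groups overlapped. Hoxa10, known for its role in the uterus, lay at 16.1, 20.7 and 19.8 FPKM among knock-out and at 23.9, 24.3 and 24.8 FPKM among wild-type libraries, and the groups did not overlap. Hoxa11, a regulator of limb and urogenital development, stood at 6.04, 7.70 and 9.34 FPKM among knock-out and 16.6, 10.2 and 20.1 FPKM among wild-type libraries, again without overlap. Of the wild-type values, that of replicate 2 was nearest to the knock-outs. Hoxa13, needed for the hindgut, was at 6.37, 11.2 and 13.7 FPKM against 21.1, 12.4 and 19.3 FPKM, and here wild-type replicate 2 lay within the knock-out range. The log2 fold changes were -0.36 ± 0.11 for Hoxa10, -0.90 ± 0.26 for Hoxa11 and -0.73 ± 0.30 for Hoxa13 (SE, adjusted p = 0.396 for each, limma). All 9 tested members of cluster a had a negative log2 fold change, with a median of -0.30, against a median of -0.02 over the 11366 genes tested.

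On the log2(FPKM + 1) scale the median span between libraries was 3.06 in cluster b, against 0.67 in cluster a and 2.20 in cluster d. The value for cluster d includes Hoxd10 and Hoxd13, which reached the testing minimum only through wild-type replicate 3. Hoxb2, at 1.11, 0.78 and 1.26 FPKM among knock-out and 0.50, 0.91 and 0.20 FPKM among wild-type libraries, was below the testing minimum. Hoxb3, which acts in the hindbrain and neck, stood at 9.92, 4.69 and 7.32 FPKM among knock-out and 0.41, 7.54 and 0.16 FPKM among wild-type libraries, so that its highest library held 62.0 times its lowest. Hoxb4, known for expanding blood stem cells when overexpressed, followed with 5.88, 2.80 and 4.45 FPKM against 0.54, 5.03 and 0.41 FPKM. Hoxb5, required for the migration of enteric neuron precursors, gave 8.10, 4.19 and 5.54 FPKM against 0.65, 6.61 and 0.59 FPKM. In all 3 genes wild-type replicates 1 and 3 were the lowest libraries, and wild-type replicate 2 lay between knock-out values.

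Hoxb6 (Entrez gene 15414), a trunk and midgut gene, stood at 18.2, 8.91 and 17.6 FPKM among knock-out and 0.65, 18.2 and 0.20 FPKM among wild-type libraries. Hoxb7 showed the same division, with 12.9, 7.43 and 9.37 FPKM against 0.34, 8.58 and 0.30 FPKM. Hoxb8, which also marks precursors of microglia, had 6.86, 3.30 and 6.20 FPKM against 0.06, 6.63 and 0.08 FPKM, a span of 114-fold from the lowest to the highest library. For these genes too, wild-type replicates 1 and 3 lay far below the other 4 libraries. Hoxb9 did not share this division, and stood at 18.0, 31.6 and 16.0 FPKM in wild-type and 32.1, 21.7 and 27.4 FPKM in knock-out libraries, a span of 2.01-fold. Hoxb13 (Entrez gene 15408), a gene of the distal colon and prostate, had the reverse order, with 2.23, 12.9 and 18.9 FPKM in knock-out libraries and 336, 14.7 and 507 FPKM among wild-type libraries. Wild-type replicate 2 fell inside the knock-out range, and knock-out replicate 1 was the lowest of all. The Hoxb13 to Hoxb6 ratio of levels was 0.122, 1.45 and 1.07 in knock-out libraries and 517, 0.808 and 2535 among wild-type libraries.

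Over all 6 libraries the tested genes of cluster b had log2 fold changes of 1.74 ± 0.75 for Hoxb3, 1.15 ± 0.57 for Hoxb4, 1.32 ± 0.62 for Hoxb5, 2.18 ± 1.02 for Hoxb6, 2.06 ± 0.77 for Hoxb7 and 1.60 ± 0.77 for Hoxb8. That of Hoxb9 was 0.34 ± 0.27, and that of Hoxb13 was -3.85 ± 1.39. Their standard errors ran from 0.27 to 1.39, against 0.09 to 0.30 in cluster a, and the lowest adjusted p was 0.396 (limma). The median log2 fold change of the 8 tested members was 1.46, with 7 positive.

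Cluster d divided at its middle. Hoxd3 (0.97, 0.53 and 0.65 FPKM among knock-out and 0.17, 1.22 and 0.06 FPKM among wild-type libraries) was low, with wild-type replicates 1 and 3 the lowest libraries. Hoxd4, a gene of the anterior trunk, stood at 4.38, 0.99 and 2.92 FPKM against 0.13, 4.30 and 0.13 FPKM, and Hoxd8 at 2.87, 1.91 and 1.58 FPKM against 0.32, 2.09 and 0.35 FPKM, with wild-type replicates 1 and 3 lowest for both. The genes from Hoxd9 on showed another order, in which wild-type replicate 3 was the highest library for each. Hoxd9 was at 0.55, 0.29 and 0.74 FPKM among knock-out and 0.03, 0.31 and 1.02 FPKM among wild-type libraries. Hoxd10, which acts in the limb and lower spinal cord, gave 0.86, 0.33 and 0.73 FPKM against 0.26, 0.44 and 4.57 FPKM. Hoxd11, a limb and kidney gene, gave 0.31, 0.09 and 0.13 FPKM against 0.18, 0.14 and 4.39 FPKM. Hoxd12 was listed at 0 in 4 libraries and reached 0.09 FPKM in wild-type replicate 1 and 1.76 FPKM in wild-type replicate 3.

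Hoxd13, which with Hoxa13 patterns the hindgut and digits, was at 0.02, 0.16 and 0.11 FPKM in knock-out libraries and 0.96, 0.09 and 68.5 FPKM among wild-type libraries. A single library, wild-type replicate 3, thus held most of the Hoxd10 to Hoxd13 RNA. Wild-type replicate 1, which was also high in Hoxb13, held 0.96 FPKM of Hoxd13. The fitted log2 fold changes were 0.88 ± 0.67 for Hoxd4, 0.80 ± 0.36 for Hoxd8, -0.41 ± 0.56 for Hoxd10 and -2.27 ± 1.47 for Hoxd13, and their groups overlapped (adjusted p of 0.398 to 0.745, limma).

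The 7 listed members of cluster c were at 0.29 FPKM or less in every library. Hoxc8, which held that highest single value, stood at 0.19, 0.29 and 0.17 FPKM among knock-out and 0.06, 0.08 and 0 FPKM among wild-type libraries. Hoxc4, Hoxc6, Hoxc5, Hoxc9, Hoxc10 and Hoxc11 reached 0.19, 0.24, 0.10, 0.10, 0.11 and 0.12 FPKM at most. Hoxc6 was listed at 0 in wild-type replicates 1 and 3 and at 0.20 to 0.24 FPKM in the other 4 libraries. No count lies behind these values in the deposited table, so a level of 0 sets no limit on the true level.

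In sum over the 35 members, Hox RNA came to 169, 146 and 188 FPKM among knock-out and 460, 206 and 708 FPKM among wild-type libraries. Most of the excess in wild-type replicates 1 and 3 was Hoxb13. Without it the sums were 167, 133 and 169 against 123, 192 and 201 FPKM. Paralogues 9 to 13 made up 43.9%, 59.0% and 55.0% of the summed Hox FPKM in knock-out libraries, and 93.5%, 53.6% and 95.8% among wild-type libraries. Paralogues 4 to 8 made up 45.2%, 32.8% and 35.9% in knock-out libraries, against 4.73%, 37.2% and 3.11% among wild-type libraries. In both shares wild-type replicate 2 fell among the knock-outs. The number of members at 1 FPKM or more was 20, 18 and 20 among knock-out and 11, 20 and 16 among wild-type libraries. Across all 6 libraries, 10 of the 21 tested members spanned more than 2 on the log2(FPKM + 1) scale, where 3.07% of all tested genes did, and the median span was 1.59 against 0.44. Hoxd10 and Hoxd13, among those 10, lay below 1 FPKM in every library but wild-type replicate 3. They reached the mean needed for testing only through that library, so their wide spans are partly set by the filter.

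**Figure D2:**
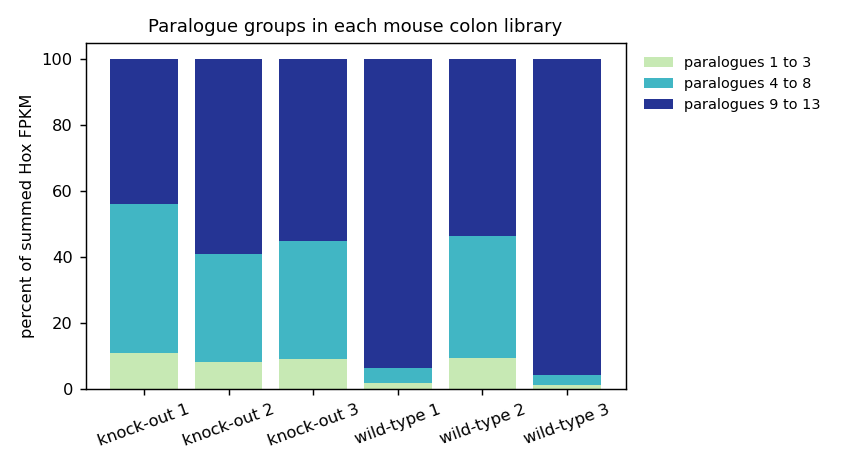
Share of summed Hox FPKM (percent, stacked bars) held by paralogues 1 to 3, 4 to 8 and 9 to 13 in each mouse colon library. Paralogues 9 to 13 fill 93.5% and 95.8% of the bars of wild-type replicates 1 and 3 and between 43.9% and 59.0% of the other 4.

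The test between genotypes was made over all 11366 genes with a mean of at least 1 FPKM, among them 21 Hox genes. The other 14 members were below that minimum, with Hoxd11 (mean 0.873 FPKM) and Hoxb2 (0.793 FPKM) just outside it and Hoxd10 (1.20 FPKM) just inside. With 6 libraries, limma called 0 genes of all tested (0%) and 0 of the 21 Hox genes at a Benjamini-Hochberg adjusted p under 0.05. At an unadjusted p under 0.05 there were 7 Hox genes of 21, and 1420 genes in all (12.5%). Groups were fully separated for 4 of the 21 Hox genes (Hoxa5, Hoxa6, Hoxa10 and Hoxa11, all lower in knock-out), beside 16.9% of all genes in either direction and 9.79% lower. Of the 21 log2 fold changes, 9 were positive and 12 negative, with a median of -0.14.

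Wild-type replicate 2 was singled out by the Hox values themselves, so the fit without it is conditioned on them, and its values and counts are a description that supports no difference between genotypes. The same holds for the counts of other gene lists in that fit, since genes that vary with the Hox genes pass more readily in it. In that fit 1861 of 11344 genes (16.4%) and 11 of 22 Hox genes lay past the threshold. Hoxb3 to Hoxb9, Hoxd4 and Hoxd8 were the 9 that were higher in knock-out (9.21% of all genes were), and Hoxa11 and Hoxb13 the 2 that were lower (7.19% of all genes). The log2 fold changes were 3.44 ± 0.31 for Hoxb6, 3.01 ± 0.21 for Hoxb7, 2.65 ± 0.27 for Hoxb3, 2.54 ± 0.26 for Hoxb8, 2.06 ± 0.23 for Hoxb5 and 1.83 ± 0.25 for Hoxb4. Hoxb9 differed less, by 0.63 ± 0.16. Hoxb13 gave -5.43 ± 0.72, Hoxa11 -1.17 ± 0.18, Hoxd8 1.20 ± 0.19 and Hoxd4 1.62 ± 0.39. Hoxa13 (-0.95 ± 0.27), Hoxa10 (-0.36 ± 0.12) and Hoxd13 (-3.41 ± 1.30) were not among the 11. Hoxd11, below the minimum mean over all 6 libraries, reached it over these 5 and was not among them either (-1.10 ± 0.57). Hoxa7 changed sign, to 0.11 ± 0.13. None of the 5 fits that left out another library called a Hox gene.

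**Figure D3:**
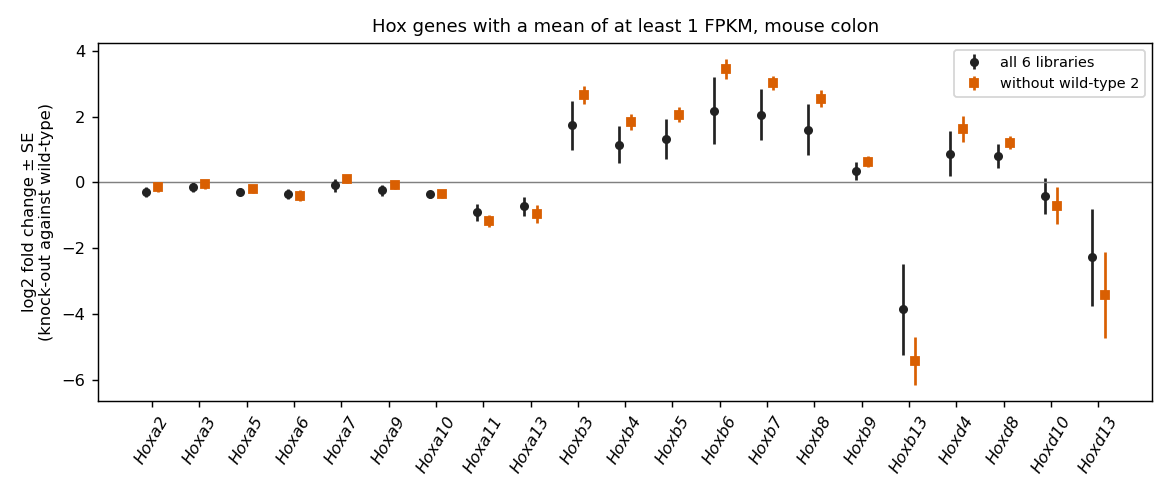
Log2 fold change (knock-out against wild-type, log2(FPKM + 1) scale, ± SE) of the 21 tested Hox genes with all 6 libraries (circles) and without wild-type replicate 2 (squares). Leaving out that library moves Hoxb6 from 2.18 to 3.44 and Hoxb13 from -3.85 to -5.43 and shrinks their error bars, while Hoxa10 keeps its value of -0.36. The library was singled out by its Hox values, so the squares and their bars are a description and no test.

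Upstream regulators were described next. Cdx1 and Cdx2 encode caudal homeodomain factors of the gut lining that activate middle HOX genes. Cdx2 stood at 139.9, 151 and 144 FPKM among knock-out and 81.2, 155 and 33.3 FPKM among wild-type libraries. Its low libraries were those in which Hoxb6 was below 1 FPKM. Cdx1 stood at 172, 159 and 166 FPKM against 152, 188 and 158 FPKM. Aldh1a1, which makes retinoic acid, was at 261, 268 and 249.8 FPKM among knock-out and 109.8, 255 and 93.1 FPKM among wild-type libraries. Rxra, a partner of the retinoic acid receptors, was at 36.4, 39.1 and 35.8 FPKM against 28.3, 34.4 and 23.7 FPKM, and its groups did not overlap. Of 22 genes on this list, 18 were listed and 8 tested, and 0 were called with all libraries (limma). Without wild-type replicate 2, 3 of the 8 were past the threshold and higher, beside 9.21% of all genes: Aldh1a1 (log2 fold change 1.35), Rxra (0.50) and Cdx2 (1.46).

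Of the 6 tested DNA-binding partners 0 were called with all libraries (limma). Pbx3, Pknox1 and Pbx2 gave log2 fold changes of 0.35 ± 0.16, -0.22 ± 0.11 and 0.16 ± 0.11. Among 15 tested genes that flank the clusters, 0 were called with all libraries. Without wild-type replicate 2, 3 were past the threshold and lower, beside 7.19% of all genes: Ttll6, Hibadh and Skap2. Ttll6, a tubulin-modifying enzyme gene next to Hoxb13, stood at 4.50, 5.25 and 7.27 FPKM among knock-out and 14.0, 8.21 and 19.2 FPKM among wild-type libraries, which placed wild-type replicate 2 nearest to the knock-outs. Evx2, the homeobox gene beside Hoxd13, was listed at 0 in all knock-out libraries and at 0.06, 0.01 and 1.68 FPKM among wild-type libraries. Like Hoxd13 it was highest in wild-type replicate 3.

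Genes on lists drawn up for regions of the colon were ordered in part like the Hox genes. Where along the colon each listed gene is used was not checked here. On a list of proximal colon genes, 13 were tested and 0 called with all libraries. Without wild-type replicate 2, which was singled out by its Hox values, the counts are a description. In that fit 6 were past the threshold and higher and 5 lower, beside 9.21% and 7.19% of all genes. Among these, Mep1a, a brush border protease, was at 288, 345 and 344 FPKM among knock-out and 224, 271 and 156 FPKM among wild-type libraries. Insl5, a hormone of colonic endocrine cells, was at 6.54, 12.9 and 19.3 FPKM against 103, 17.5 and 96.0 FPKM. Like Hoxb13, it was highest in wild-type replicates 1 and 3. On a list of distal colon genes, 13 were tested and 0 called with all libraries, and without wild-type replicate 2, 2 were past the threshold and higher and 4 lower, beside the same shares. Scnn1b, a subunit of the sodium channel of the distal colon, was at 2.36, 1.33 and 2.59 FPKM among knock-out and 8.70, 3.96 and 18.4 FPKM among wild-type libraries. Wfdc2 was at 61.6, 60.7 and 79.2 FPKM against 239, 99.3 and 366 FPKM. The 2 higher ones on this list, Slc10a2 and Sct, were lowest in wild-type replicates 1 and 3, as Hoxb3 to Hoxb8 were. Slc10a2 was at 63.0, 35.45 and 46.9 FPKM against 1.52, 39.65 and 3.61 FPKM. Sct was at 53.05, 34.8 and 43.45 FPKM against 14.2, 43.8 and 6.02 FPKM. In each of these genes wild-type replicate 2 was the wild-type library nearest to the knock-outs.

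The summed levels of some marker lists of other tissues differed between the same libraries. The summed level of 10 smooth muscle markers was 519 to 809 FPKM among knock-out and 394, 639 and 443 FPKM among wild-type libraries, and that of 8 adipocyte markers 101 to 182 FPKM against 68.0, 98.2 and 66.7 FPKM. Most of the adipocyte sum in wild-type libraries was Pck1, at 55.7, 39.8 and 48.7 FPKM against 54.3, 54.7 and 56.2 FPKM. Cfd was at 40.7, 13.8 and 47.2 FPKM against 2.28, 7.55 and 1.37 FPKM. Adipoq was at 6.02, 2.35 and 8.90 FPKM against 0.18, 1.21 and 0.13 FPKM. Of 6 tested adipocyte markers, 5 log2 fold changes were positive and 1 negative, and 0 were called with all libraries (limma). Colon epithelium markers summed to 19740 to 23120 FPKM against 15450, 22520 and 15860 FPKM. Much of this difference was Car1, at 7522.8, 6784.5 and 4496.5 FPKM against 945, 5856.8 and 1584 FPKM. Epcam was at 984, 1060.7 and 1029 FPKM against 1017, 1046.5 and 917 FPKM. Slc26a3 went the other way, at 213, 453 and 367 FPKM against 1189, 361 and 1351.5 FPKM. Of 13 tested epithelium markers, 9 log2 fold changes were positive and 4 negative. Of 11 immune markers the sum was 105 to 165 FPKM among knock-out and 364, 143 and 209 FPKM among wild-type libraries. Most of it was Jchain (86.3, 48.8 and 80.5 FPKM against 206, 74.5 and 112 FPKM) and Lyz2. Cd3g went the other way, at 7.30, 5.11 and 5.48 FPKM against 3.34, 5.22 and 1.87 FPKM. So did Cd3e, at 4.11, 2.59 and 3.14 FPKM against 1.41, 3.03 and 0.94 FPKM. Of 10 tested immune markers, 3 log2 fold changes were positive and 7 negative. Fibroblast markers (10 of 10 listed) summed to 91.9 to 122 FPKM among knock-out and 95.3 to 107.5 FPKM among wild-type libraries, and enteric neuron and glia markers (10 of 10) to 18.2 to 28.8 FPKM and 16.5, 26.9 and 12.3 FPKM. Endothelium markers (10 of 10) summed to 6.21 to 8.15 FPKM and 13.4, 6.65 and 13.4 FPKM, and small intestine markers (11 of 12) to 212 to 249 FPKM and 228, 195 and 275 FPKM. Squamous markers (10 of 12) summed to 208 to 274 FPKM and 139, 223 and 106 FPKM, nearly all of it Sfn, which colon epithelium also expresses, with Krt5 listed at 0 in 5 libraries and Trp63 at 0.01 FPKM at most. For the urogenital markers (7 of 10 listed, 16.2 to 23.0 FPKM among knock-out and 10.4 to 19.6 FPKM among wild-type libraries), Pbsn, Svs4 and Upk2 were at 0.10 FPKM or less throughout. Most of this sum was Upk1a, at 12.0, 17.5 and 14.8 FPKM among knock-out and 12.9, 14.7 and 8.27 FPKM among wild-type libraries. Pax8 and Upk1b were also present, at 2.67 and 2.63 FPKM at most. The part of these markers in the Hox differences was not tested.

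In RKO cells no HOX gene varied more than 2.16-fold between libraries, and no HOX gene passed the test after 72 h of doxycycline. The cells held RNA of all 4 clusters, with the middle and distal genes HOXB9, HOXA9 and HOXA7 and the proximal HOXB2 at the top and HOXA3 and HOXD1 at the bottom. HOXA10 was lower in every doxycycline library than in any untreated one, and did not pass (adjusted p = 0.0641, limma). The RKO values are a batch-adjusted signal whose scale is not given in the sources used here beyond the name FPKM, which their sums do not bear out. Median signal ran from 85.8 in the fifth of genes with the shortest transcripts to 426 in the fifth with the longest, and after division by length from 85.6 to 53.5. Levels of different genes are therefore given as signal per kilobase (per kb) of the longest GENCODE transcript, on the assumption that the signal is not yet per length, and changes from the signal itself. HOXB9, HOXA9, HOXA7, HOXB2 and HOXC8 came first in this order with or without the division, and HOXA3 and HOXD1 were the lowest 2 either way. The order of the other members and the shares of the clusters depend on it. Some RKO libraries of opposite groups share values: doxycycline replicate 3 and untreated replicate 1 were listed with exactly equal signal for 526 genes, HOXC11 and HOXD8 among them, and replicates 2 of both groups for 310, HOXA3, HOXA6, HOXA9 and HOXD3 among them. With these libraries as blocks, limma called 0 HOX genes, as without blocks.

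**Figure D4:**
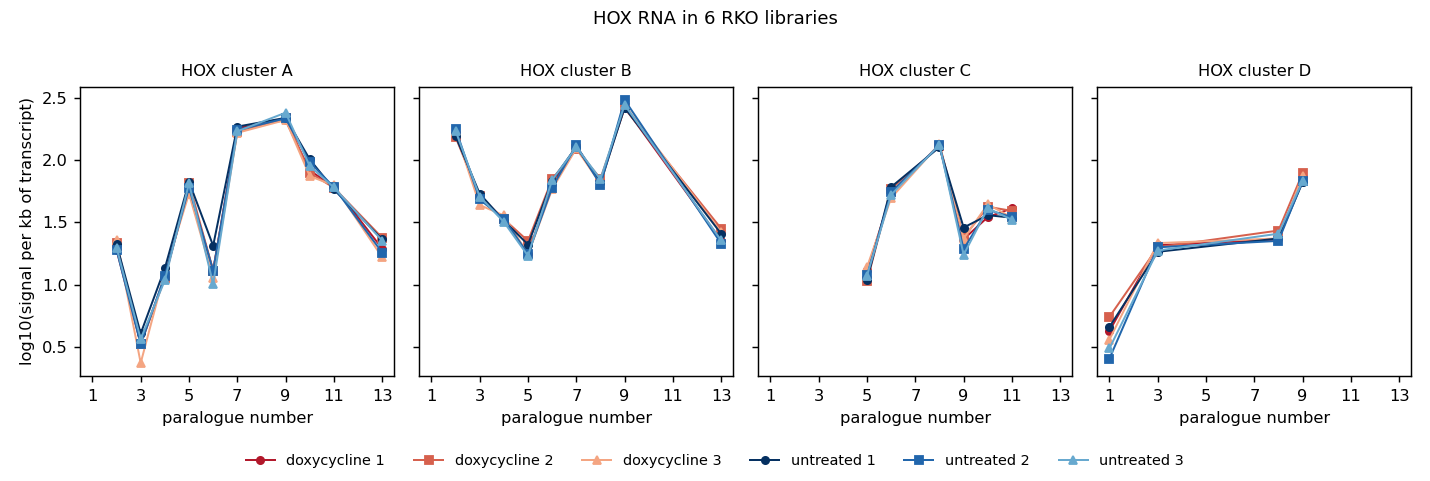
HOX RNA in RKO cells as log10 of signal per kb against paralogue number, with a panel for each cluster and a line for each of the 6 libraries (reds, doxycycline; blues, untreated). The 6 lines nearly coincide, with peaks at HOXB9 (mean 274 per kb) and HOXA9 (217) and low points at HOXA3 (3.37) and HOXD1 (3.95).

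Per kb, HOXB9 was first in every library, at 265, 259 and 276 with doxycycline and 263, 303 and 276 without it. HOXA9 was second in every library, at 208, 216 and 209 against 218, 216 and 239. These ranges did not overlap each other. HOXA7 (180.3, 167 and 165 against 185, 174 and 169.7) and HOXB2 (164, 153 and 167 against 155, 178 and 172) came next, and their ranges overlapped, so their order is not set. HOXC8 (mean 131 per kb) and HOXB7 (127) followed, with ranges that overlapped, and then HOXA10 (87.0) and HOXD9 (71.3). The proximal genes HOXA2 (20.7), HOXA3, HOXA4 (12.0) and HOXD1 were lower, and HOXB2 stood above all other members of paralogues 2 to 4. The terminal genes HOXA13 (20.6) and HOXB13 (24.5) lay below HOXA9 and HOXB9. In sum per kb, cluster B held 41.5% to 43.7% of HOX signal in the 6 libraries, cluster A 34.6% to 37.5%, cluster C 14.75% to 15.9% and cluster D 5.76% to 6.80%. Paralogues 9 to 13 held 43.4% to 44.7% and paralogues 4 to 8 40.1% to 42.1%, against the wide spread of these shares in mouse colon. The tables were normalized separately, so levels are not compared between the species. HOXC5 and HOXC6 share first exons with HOXC4, and the counting is not stated to use strand, so reads of overlapping and antisense genes cannot be told apart.

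HOXA10 and HOXA9, neighbours in cluster A on chromosome 7, are shown with the bases just before a start site of each, since HOXA10 came nearest to the threshold and HOXA9 was the highest gene of the cluster. The sequences are from RefSeq on GRCh38.p14, on the minus strand, 250 bases ending at the base before the start. Capitals mark TTTAT or, for the other strand, ATAAA, the core of the CDX binding motif.
HOXA10, chr7:27174321-27174570: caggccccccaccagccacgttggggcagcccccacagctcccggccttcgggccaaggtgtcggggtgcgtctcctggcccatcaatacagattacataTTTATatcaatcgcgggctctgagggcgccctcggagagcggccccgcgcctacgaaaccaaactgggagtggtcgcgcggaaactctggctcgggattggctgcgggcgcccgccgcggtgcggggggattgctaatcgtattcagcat
HOXA9, chr7:27165538-27165787: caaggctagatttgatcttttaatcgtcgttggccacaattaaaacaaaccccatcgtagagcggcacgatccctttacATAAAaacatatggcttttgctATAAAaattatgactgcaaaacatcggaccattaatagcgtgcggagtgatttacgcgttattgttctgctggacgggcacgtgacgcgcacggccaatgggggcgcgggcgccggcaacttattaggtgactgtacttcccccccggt
The first region has 1 match and 24 CpG dinucleotides, and the second 2 matches and 20 CpG dinucleotides. With each position counted once, since HOXC4 and HOXC5 share one, these letters occur on either strand in 13 of 26 HOX start regions (50%) and in 32.8% of 34943 regions of this length. HOXA3 alone gave 7 of these regions and 5 of those with a match. Counted by gene, 9 of 20 HOX genes (45.0%) and 37.6% of 27305 genes had a match in at least 1 region. Of the 30 RKO members, 13 had a start region. HOX start regions held a median of 19.5 CpG dinucleotides and all regions a median of 11. A match of letters is a description and does not make a binding site.

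Doxycycline was compared with no doxycycline in 3 libraries each. Over all 15590 genes, limma called 178 (1.14%), 60 higher and 118 lower, and 0 of the 30 HOX genes. Leaving out any 1 library lowered the number of called genes to between 1 and 24, and none of these fits called a HOX gene. At an unadjusted p under 0.05 there were 2 HOX genes (HOXA10 and HOXD9), beside 17% of all genes. Groups were fully separated for those 2 of 30, beside 21.9% of all genes. The log2 fold changes of the HOX genes ran from -0.28 to 0.36, with 15 positive and 15 negative and a median of 0.0012, against -0.01 for all genes. None of the 30 spanned more than 1 on the log2 scale over the 6 libraries, which 1.83% of all genes did. A missed threshold does not show that a gene was unaffected.

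In cluster A, HOXA10 signal was 209, 201 and 189 with doxycycline and 257, 244 and 227 without it, a log2 fold change of -0.28 ± 0.06 (SE, adjusted p = 0.0641, limma). All doxycycline libraries lay below all untreated ones. Once the trend with GC content was removed from each library, HOXA10 was the 1 HOX gene that passed (-0.31, adjusted p = 0.0421, limma), and over all alternatives its adjusted p ran from 0.0421 to 0.288. That fit kept only the 84.1% of genes with a GC content. The share of all genes called in it is not given here, so this call is not set against a background. The antisense gene HOXA-AS4, which overlaps it, had -0.07 ± 0.05 (adjusted p = 0.546, limma). HOXA9 signal was 429, 444 and 431 with doxycycline and 448, 444 and 493 without it, and HOXA7 signal 364, 337 and 333 against 373, 351 and 342. Both pairs of groups overlapped, with log2 fold changes of -0.09 ± 0.05 and -0.04 ± 0.05. HOXA11 signal was 141, 137 and 143 against 133, 139 and 138 (0.04 ± 0.06), and HOXA13 signal 98.1, 119.8 and 83.6 against 116, 91.2 and 114 (-0.10 ± 0.13), again with overlap.

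The proximal genes of cluster A were at lower signal. HOXA2 signal was 38.2, 43.1 and 45.9 with doxycycline and 42.2, 38.1 and 39.7 without it (0.08 ± 0.10). HOXA3 signal was 11.5, 11.3 and 8.05 against 13.9, 11.3 and 12.5 (-0.28 ± 0.17). The HOXA3 difference was of the size of that of HOXA10, with a larger standard error. HOXA4 signal was 20.2, 19.9 and 22.3 against 23.7, 20.7 and 19.0 (-0.02 ± 0.12), and HOXA5 signal 99.4, 108 and 89.0 against 111, 99.3 and 108 (-0.10 ± 0.08). HOXA6 signal was 12.9, 12.9 and 11.3 against 20.4, 12.9 and 10.0 (-0.16 ± 0.22), with untreated replicate 1 above the other 5 libraries. The groups of all 5 genes overlapped. In cluster A, 2 of 11 log2 fold changes were positive, and the median was -0.09.

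Cluster B held the 9 genes from HOXB2 to HOXB13. HOXB9 signal was 684, 669 and 712 with doxycycline and 678, 782 and 713 without it (-0.07 ± 0.05), and HOXB13 signal 78.3, 97.8 and 91.4 against 88.8, 74.1 and 78.6 (0.14 ± 0.10). HOXB2 signal was 255, 239 and 261 against 243, 278 and 268 (-0.06 ± 0.06), and HOXB3 signal 215, 215 and 183 against 226, 203 and 214 (-0.07 ± 0.07). The doxycycline and untreated values of these genes overlapped. HOXB4 signal was 125, 126 and 135 against 123, 127 and 119.8 (0.06 ± 0.06). HOXB5 signal was 36.1, 45.9 and 35.9 against 42.9, 36.0 and 34.9 (0.05 ± 0.13), and HOXB6 signal 126, 138 and 115 against 134, 118 and 136 (-0.04 ± 0.08). HOXB6, which varied 91.2-fold over the libraries of mouse colon, varied 1.20-fold here. HOXB7 signal was 176, 167 and 169.7 against 175, 179.7 and 174 (-0.05 ± 0.05), and HOXB8 signal 123, 129 and 117 against 119.6, 116 and 128 (0.03 ± 0.07). In cluster B 4 of 9 log2 fold changes were positive, with a median of -0.04.

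In clusters C and D most log2 fold changes were positive, some of them near 0, and none was called. HOXC8, a gene of the thoracic trunk, had the steadiest signal of all members, 251, 243 and 254 with doxycycline and 239, 248 and 250.1 without it (0.02 ± 0.05). HOXC11 signal was 134, 128 and 113 against 113, 114 and 108 (0.16 ± 0.08), and HOXC10 signal 67.5, 81.7 and 85.6 against 70.0, 77.3 and 79.6 (0.04 ± 0.10). HOXC9 signal was 35.2, 36.4 and 35.6 against 43.6, 29.3 and 26.4 (0.14 ± 0.16), with both the highest and the lowest library untreated. HOXC6 signal was 158, 172 and 146 against 179, 162 and 155 (-0.06 ± 0.08), and HOXC5 signal 23.6, 19.3 and 25.0 against 19.7, 21.5 and 21.4 (0.11 ± 0.13). In cluster C, 5 of 6 log2 fold changes were positive. In cluster D all 4 were, beside 44.9% of all genes tested. The sign of HOXC9, HOXC10 and HOXD8 changed in some refits. HOXD9 signal was 136, 147 and 139.7 with doxycycline and 124, 127 and 127 without it, with no overlap and a log2 fold change of 0.16 ± 0.06 (SE, adjusted p = 0.207, limma). HOXD1 signal was 8.44, 10.9 and 7.20 against 9.08, 5.06 and 6.11 (0.36 ± 0.22), HOXD3 signal 49.5, 47.7 and 51.5 against 43.9, 47.7 and 44.9 (0.12 ± 0.08), and HOXD8 signal 44.3, 52.2 and 45.1 against 45.1, 43.1 and 49.3 (0.04 ± 0.10). These 3 overlapped between groups.

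**Figure D5:**
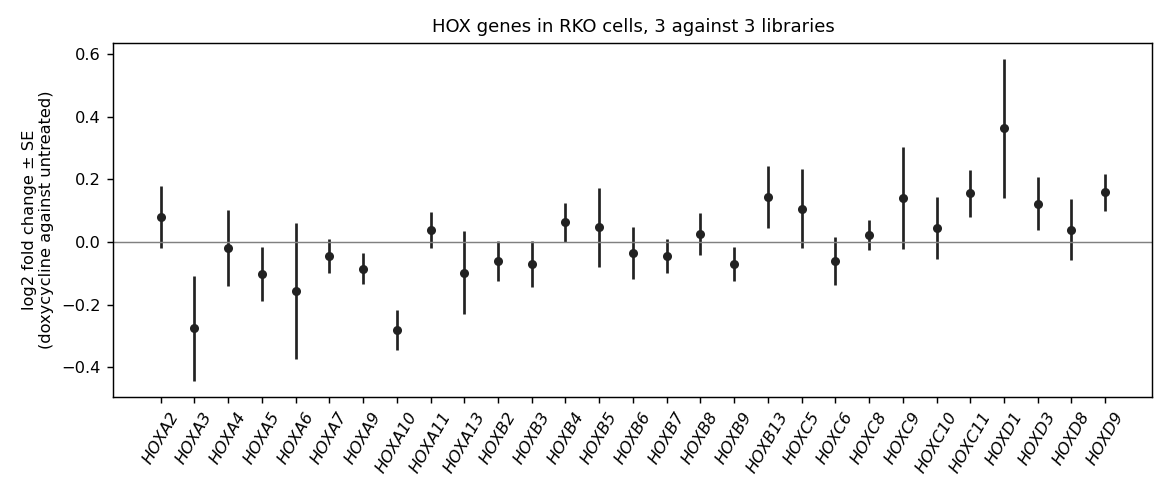
Log2 fold change (doxycycline against untreated, log2(signal + 1) scale, ± SE) of HOX genes in RKO cells, 3 libraries each. HOXA10 (-0.28) and HOXD9 (0.16) are the genes whose groups were fully separated, and the wide bars of HOXD1, HOXA6 and HOXA3 belong to genes of low signal.

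Of the regulators of HOX genes, CDX2 and MEIS3 rose in RKO cells. CDX2 signal was 214, 221 and 226 with doxycycline and 181, 171 and 179 without it (0.31 ± 0.05, adjusted p = 0.0335, limma), and 1 of 9 tested upstream genes was called, beside 1.14% of all genes. MEIS3, a DNA-binding partner of HOX proteins, had a signal of 552, 609 and 583 against 476, 465 and 467 (0.31 ± 0.05, adjusted p = 0.0276, limma), 1 of 6 tested partners. The CDX2 call was lost when any 1 library was left out (adjusted p of 0.0636 to 0.146, limma). The MEIS3 call was lost when any 1 library other than doxycycline replicate 1 was left out (up to 0.134). With blocks of libraries that share equal values, neither was called (adjusted p = 0.215 and 0.193, limma). CRABP2, which binds retinoic acid, did not pass at a signal of 568, 621 and 582.3 against 671, 655 and 662 (-0.17 ± 0.04, adjusted p = 0.0920, limma), except with the GC trend removed (-0.21, adjusted p = 0.0398, limma), and over all alternatives its adjusted p ran from 0.0398 to 0.334. RARG and PDX1 gave 0.11 ± 0.04 and 0.16 ± 0.07.

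Non-coding genes inside the clusters gave no call, 0 of 13 (limma), with 0 at an unadjusted p under 0.05. HOTAIRM1, of cluster A, had a signal of 246, 234 and 241 with doxycycline and 224, 230.5 and 213 without it, with no overlap (0.11 ± 0.05). HOTAIR, of cluster C, was at 5.01, 6.22 and 6.72 against 2.96, 4.15 and 5.71 (0.43 ± 0.22), and HOXD-AS1 gave 0.11 ± 0.06. Of 15 tested genes that flank the clusters, 0 were called, with 5 at an unadjusted p under 0.05, beside 17% of all genes. CBX1, a heterochromatin protein gene near cluster B, came nearest, at 706, 732 and 710.0 against 806, 792 and 774 (-0.14 ± 0.04, adjusted p = 0.0971, limma). CALCOCO1, SNX11 and MTX2 gave 0.23 ± 0.08, -0.20 ± 0.07 and -0.13 ± 0.05.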

How the data were processed

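Polyadenylated RNA was sequenced from 6 RKO and 6 mouse colon libraries, 3 per group. Per the submitters' processing notes, hg19 was the build and the tools were Bowtie2, HISAT, edgeR and HTSeq, whose versions, roles and order are not given in the sources used here. The mouse build and the strandedness of counting are not given in the sources used here. The mouse values are FPKM per the file headers. The deposited RKO values, named FPKM and ComBat (a batch adjustment) by their file, sum to 9050161 to 9195211 per library, too much for FPKM, and are called signal here. The batches and model of that adjustment are not given in the sources used here. The tests had been set for FPKM and were kept. Read depth is unknown, so no counting interval is given.

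Values were taken as log2(value + 1), so changes of low genes are understated. Each table was fitted alone over all genes with a mean of at least 1 (limma 3.58.1 with a variance trend, R 4.3.3), with Benjamini-Hochberg adjustment over all genes tested, and a gene was called at an adjusted p under 0.05. The procedure was tested on simulated data with independent noise for each gene. Those data held no shift of a library shared by many genes and no equal values between libraries. Targeted genes were compared by exact two-sided permutation (SciPy 1.17.1). HOX genes were named, apart from results not reported here, and of each list outside HOX up to 4 genes with the lowest unadjusted p, other names having been chosen after their values were seen. The members and lists were chosen with earlier results of these data known. RKO signal per kb used the longest GENCODE v29 transcript of each symbol. GC content was found for 84.1% of RKO genes (12539 by symbol, 579 through a synonym) and for 30 of 30 HOX genes, whose median was 54.8% against 48.3% for all genes. Start regions came from the RefSeq table on GRCh38.p14, another build than the one the notes name, and no coordinates of the expression tables were used. Alternatives were pseudocounts of 0.1 and 10, no minimum mean and a minimum of 5, 3 rescalings, robust variance, the replicate number as a block, removal of the GC trend in RKO (lowess, span 0.3) and removal of each library. A block of RKO libraries that share equal values, and a fit without GC correction on the genes with a GC content, were chosen after seeing the data.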

Additional observations from a re-analysis of the deposited data

How the results depend on the processing

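Of 304 refits of the log2 fold changes of colon Hox genes, 292 kept their direction and side of the threshold, 11 passed it (all without wild-type replicate 2) and 1 changed sign. Leaving out 1 library gave 0 to 1861 called genes in colon and 0 to 11 called Hox genes, and the only fit above 0 was that without wild-type replicate 2. Hoxa7 ran from -0.23 to 0.11 in these fits.

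In RKO, 548 of 570 refits of HOX genes kept direction and side, 1 passed the threshold (HOXA10) and 21 changed sign, in 10 genes. The count of 178 called genes fell to 1 with the replicate block, 1 with the GC trend removed and the replicate block, 0 with the block of libraries that share equal values, and 1 to 24 when 1 library was left out, with fewer libraries in each such fit. The number of called HOX genes was 1 with the GC trend removed, a fit whose share of called genes is not given here, and 0 under every other alternative run. Leaving out 1 library moved the log2 fold change of HOXA4 from -0.089 to 0.063, HOXA6 from -0.371 to 0.105, HOXA13 from -0.231 to 0.026, HOXB3 from -0.110 to 0.0055, HOXB5 from -0.067 to 0.136, HOXB6 from -0.101 to 0.032, HOXB8 from -0.010 to 0.065, HOXC9 from -0.0011 to 0.351, HOXC10 from -0.023 to 0.145 and HOXD8 from -0.034 to 0.091. With the GC trend removed, with or without the replicate block, HOXB8 stood at -0.026 and HOXD8 at -0.0172. Why these values moved was not tested.

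Replicate numbers did not pair the libraries: same-numbered libraries had correlations of their deviations of -0.45, -0.14 and 0.15 in colon and 0.08, -0.53 and 0.06 in RKO. With the replicate block, 0 Hox genes were called in colon and 0 in RKO, as without it. ASH2L, CDX2 and MEIS3 were not called with it. A minimum mean of 5 left some colon genes, such as Hoxb4, without a value. Read counts were not used here, so the depth behind the low members is unknown.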

Other observations

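Regulators of gut mesenchyme, the layer that carries many HOX transcripts, were listed with the Hox genes of colon. Osr2, a zinc finger factor, stood at 74.5, 37.2 and 64.1 FPKM among knock-out and 0.13, 51.5 and 0.09 FPKM among wild-type libraries, and Tbx3, a T-box factor, at 10.9, 7.29 and 8.32 FPKM against 0.46, 9.39 and 0.61 FPKM. Wnt5a, a ligand of the elongating gut, was at 1.85, 1.48 and 2.08 FPKM against 0.66, 1.73 and 0.41 FPKM. In all 3 genes wild-type replicates 1 and 3 were the lowest libraries, as for Hoxb3 to Hoxb8. Of the 10 tested genes on this list, limma called 0 with all libraries. Without wild-type replicate 2, which was singled out by its Hox values, the 3 just named were past the threshold and higher, beside 9.21% of all genes. Ihh, a hedgehog ligand of the epithelium, was at 48.0, 56.4 and 52.0 FPKM against 43.2, 51.6 and 46.1 FPKM. In RKO, 0 of 11 tested genes on this list were called.

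Trithorax group proteins and their partners keep HOX genes active, and the RKO comparison called 1 of 19 of their genes, beside 1.14% of all genes. ASH2L, a core subunit of histone H3 methyltransferase complexes, had a signal of 391, 395 and 404 with doxycycline and 478, 461 and 449.6 without it (-0.22 ± 0.04, adjusted p = 0.0459, limma), a call that was lost when any 1 library was left out (adjusted p of 0.0896 to 0.157). MEN1, which tethers KMT2A to HOX genes, was higher in all doxycycline libraries, at 952, 980.3 and 933 against 869, 855 and 842 (0.16 ± 0.04, adjusted p = 0.0702, limma). PSIP1 and AFF4 gave -0.14 ± 0.03 and -0.12 ± 0.03. In colon, 0 of 20 tested genes of this list were called with all libraries, and 0 without wild-type replicate 2.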
